A study of Mus musculus with 2 samples.

Results

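The renin-angiotensin system genes described here are 9 of the 32285 genes counted in newborn mouse kidney: Agt, Ren1, Akr1b7, Ace, Enpep, Agtr1a, Agtr1b, Agtr2 and Atp6ap2. They were chosen by symbol, with earlier results of these data known, and each symbol matched 1 row of the gene table. Single cells of kidneys at postnatal day 0 were sequenced from the 3' end of the cDNA after droplet capture. There were 2 libraries, replicate 1 and replicate 2, and both carry the genotype Rbpj c/+ ; Foxd1cre/+, read here as 1 conditional and 1 wild-type copy of Rbpj with a Cre recombinase under the control of Foxd1. Foxd1 is expressed in the stromal progenitors of the developing kidney, so the Cre acts in that lineage, and no library without the allele or the Cre was analysed here. The labels do not say how many kidneys or animals went into a library. The p-values below rest only on how differences between cell types varied between these 2 libraries. The library was a block in the tests unless stated otherwise.

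In the classical pathway angiotensinogen, the product of Agt, is cut by renin into angiotensin I, and angiotensin-converting enzyme (Ace) turns angiotensin I into angiotensin II. Angiotensin II acts on type 1 receptors (Agtr1a and Agtr1b in the mouse) and the type 2 receptor (Agtr2), and aminopeptidase A (Enpep) converts it to angiotensin III. In the fetal and newborn kidney renin cells lie along the arteries and arterioles and derive from Foxd1-expressing stroma, whereas in the adult they are mostly confined to the juxtaglomerular position.

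Barcodes were kept from 3000 unique molecular identifiers upward (UMIs, 1 per counted RNA molecule), with 500 genes or more and mitochondrial UMIs of 20% at most. They numbered 5529 in replicate 1 and 4206 in replicate 2, with medians of 15016 and 20007.5 UMIs, and 6 barcode sequences occurred in both libraries. After removal of 245 and 142 likely doublets, 4458 and 3506 barcodes passed a gate for 1 kidney cell type by marker genes that include no member. Levels are given as CPM, the UMIs of a gene per 1000000 UMIs of all cells of a type in 1 library, in the order replicate 1, replicate 2. Tests were edgeR quasi-likelihood F tests on sums per library and type, two-sided, with Benjamini-Hochberg adjustment over all tested genes and a threshold of 0.05. The SE beside a log2 fold change was derived from the test, as its absolute value divided by the square root of F. All 9 members passed the filter on low counts, and 17563 genes were tested across 14 types.

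Short stretches of promoter are printed for the members with the most restricted levels, from base 45 to base 16 before the RefSeq start on GRCm38.p6, with matches to the TATA box letters TATAAA in capitals. They show that Ren1 and Akr1b7, which shared their main cell type, differ in these exact letters, and that Agt and Agtr1b also hold them. Only exact matches are in capitals. The Akr1b7 stretch holds cataaa and the Agtr2 stretch tataag, both close to TATAAA and left unmarked. Whether either acts as a TATA box was not tested.
Ren1, chr1:133350629-133350658, plus strand: tgtgatacatggtgtgTATAAAagaaggct
Akr1b7, chr6:34412317-34412346, plus strand: cctcctttatccaggacataaaaatgtcac
Agt, chr8:124569722-124569751, minus strand: tctccaccccttgagTATAAAtaagcctgc
Agtr1b, chr3:20367193-20367222, minus strand: acgcccctttgctgTATAAAttgtagctgt
Agtr2, chrX:21484579-21484608, plus strand: ccagtggacagagcgaatatataagaagga
The match began 29 bases before the start in Ren1, 30 in Agt and 31 in Agtr1b. On the opposite strand the letters also began 31 bases before a start of Ace and 52 before that of Enpep, so that 5 members held them on either strand. TATAAA occurred on either strand in the 250 bases before the start of 12.4% of 32851 mouse promoters. For the members, 8 of the 9 matched a promoter entry, and Ace has 2. None of those windows held TGGGAA, the letters searched for RBPJ, or TGACGTCA, those for the cyclic AMP response element. Inexact matches and sites outside the windows were not searched. Over all promoters the shares were 21.6% and 1.55%. The shorter TGACG, which is part of TGACGTCA, matched in Atp6ap2 alone against 17.8% of all promoters. The GENCODE M21 models of Ren1, Akr1b7 and Agtr2 begin further upstream than the RefSeq starts, so that their stretches lie partly or wholly inside those gene models.

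The precursor gene Agt was found mainly in proximal tubule cells, at a low level. It measured 6.10 and 12.9 CPM there, from 99 and 162 UMIs in 59 of 387 and 62 of 253 cells. All other fitted types pooled gave 0.1496 and 0.1269 CPM, so the proximal tubule level was 40.8-fold and 102-fold higher. These cells held 86.8% and 93.1% of the Agt UMIs of all gated cells. Against the unweighted mean of the other types the difference passed the edgeR test (adjusted p = 3.35e-09), but not the DESeq2 test (adjusted p = 0.152). The fitted log2 fold change was 7.92, and 4.43 and 5.44 within single libraries, where a prior count is added. In nephron progenitors, from which the tubule forms, no Agt UMI was counted in 22847766 and 16110357 UMIs. Taking 3 counts per library as the limit that a count of 0 allows, proximal tubule cells were at least 46.4-fold and 69.3-fold higher than progenitors. Those limits cover counting error only. In mural cells, where Agt was also called higher, 9 and 7 UMIs gave 2.24 and 1.54 CPM, which was 2.40 and 0.945 times the level of all other types pooled. No other type exceeded 0.365 CPM in either library.

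**Figure D1:**
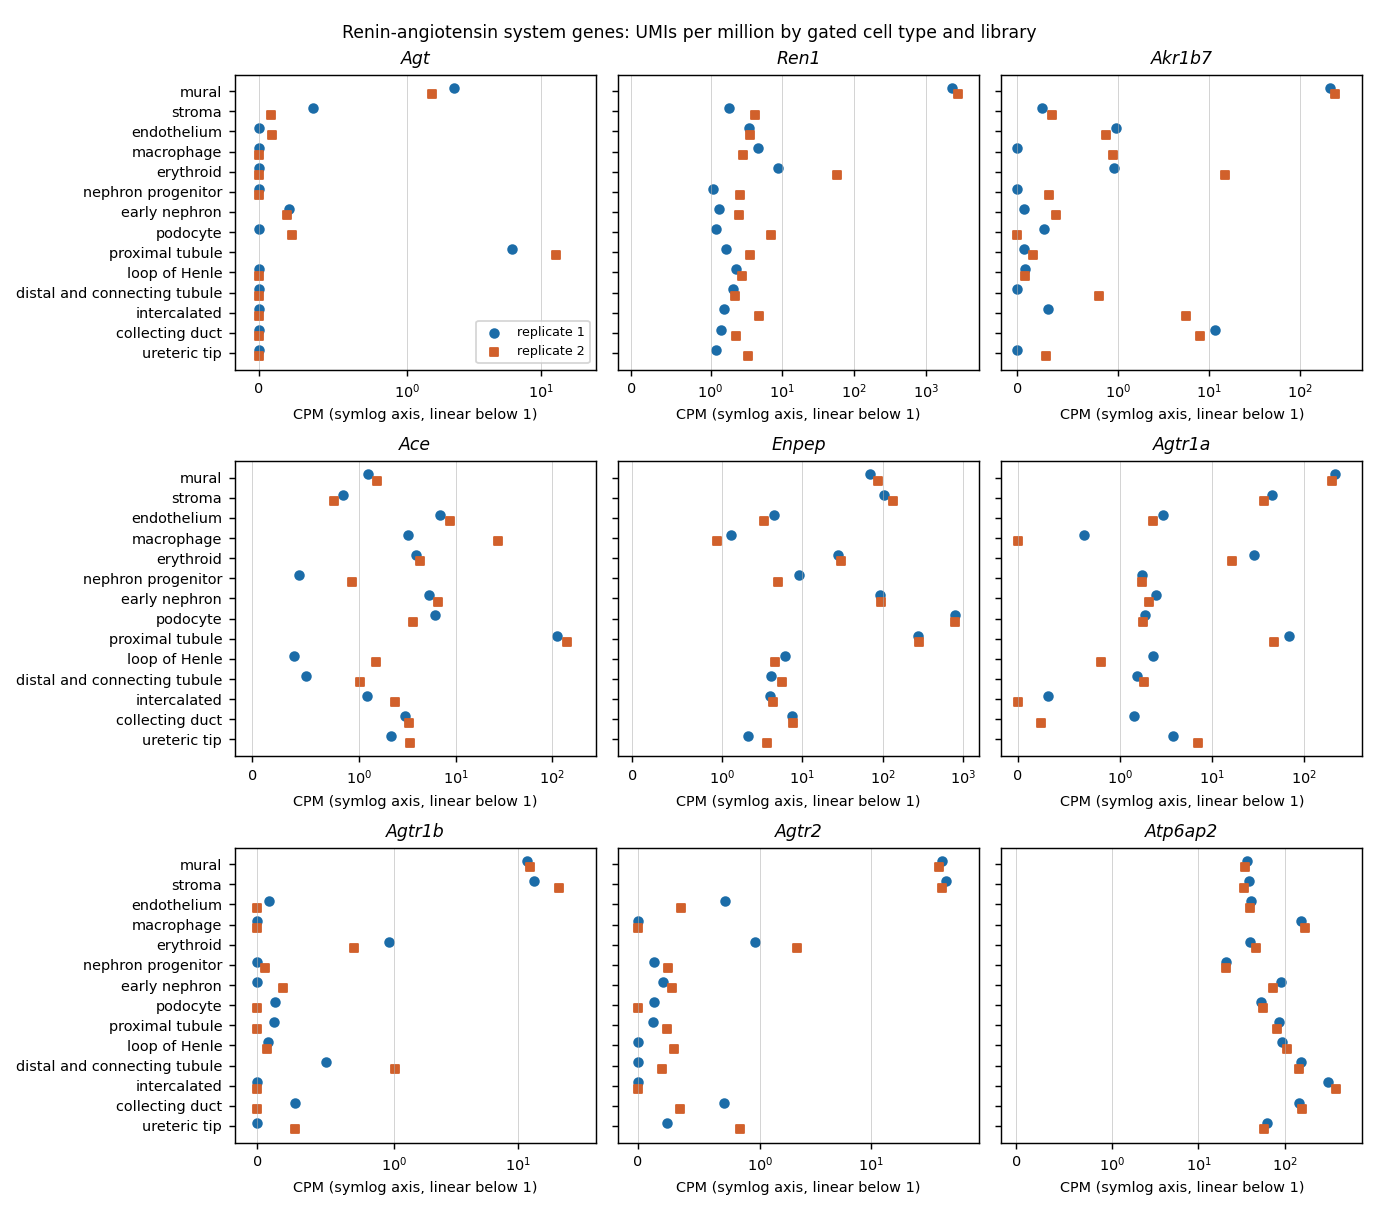
Level of each member in CPM (x axis, symmetric log scale, linear below 1) in the 14 fitted cell types (y axis), with 1 point per library. Ren1 and Akr1b7 stand highest in mural cells, Agt and Ace in proximal tubule, Enpep in podocytes, Agtr1b in stroma, Agtr1a in mural cells and Atp6ap2 in intercalated cells, and the Agtr2 points of stroma and mural cells lie close together.

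Ren1, which encodes renin, was a mural gene in both libraries. Mural cells, the smooth muscle cells, pericytes and mesangial cells around vessels, measured 2256 and 2733 CPM (2494 ± 338, SD, n = 2), from 9052 and 12439 UMIs in 319 and 261 cells. In replicate 1 a single cell held 5363 of the 9052 UMIs, and without the highest cell of each library the levels were 924 and 2220 CPM. The other 12 types, leaving out erythroid cells, ranged from 1.09 to 6.93 CPM, and the level expected in them from free RNA was 0.257 to 4.17 CPM. That expectation takes barcodes of at most 100 UMIs, where Ren1 measured 45.6 and 58.4 CPM, and scales them by the haemoglobin UMIs in each type. The 2 ranges overlap with the libraries pooled, and no order was read among those types. The upper end of 4.17 CPM was podocytes of replicate 1, with a free RNA share of 9.16% and a measured 1.21 CPM. In replicate 2 the free RNA shares of the 12 types were only 0.439% to 1.13%. There the measured 2.22 to 6.93 CPM lay above the expected level in each of these types. The source of that Ren1 was not tested. Mural cells exceeded the mean of the other types by 9.69 on the log2 scale (SE 0.16, edgeR adjusted p = 1.50e-20). Of the Ren1 UMIs of all gated cells, 97.8% and 96.8% were in mural cells. Ren1 was called lower in 6 types, all inside the range above.

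Erythroid cells gave 8.64 and 56.8 CPM of Ren1, from 9 and 80 UMIs in 6 and 8 cells, and 1 cell of replicate 2 held 51 of its 80. In each library 12 of the erythroid cells also had at least 3 mural markers with a UMI, and the mural markers summed to 508 and 988 CPM in this gate. In erythroid cells 4 of 9 members were called higher, against 19.3% of all genes called in either direction, 13.7% higher and 5.63% lower: Ren1, Akr1b7, Agtr1a and Enpep. The part of these mural-marker cells in the erythroid values was not tested.

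Few mural cells had any renin UMI. After thinning each cell to 3000 UMIs, 9.40% (95% exact binomial interval 6.44% to 13.2%) and 16.9% (12.52% to 21.96%) of mural cells kept a Ren1 UMI, against 0.517% and 0% of proximal tubule cells. The 0 of 253 proximal tubule cells allows up to 1.19% of cells with a Ren1 UMI at that depth, taking 3 counts as the limit. Intervals and limits on shares of cells cover the sampling of cells within 1 library only, not the spread between libraries. Without thinning the shares were 14.7% and 24.1% in mural cells, at median depths of 11041 and 15506 UMIs, and 6.20% and 14.2% in proximal tubule cells, at 32759 and 42127 UMIs. The renin message was concentrated further in renin-high cells, taken as those with at least 20 Ren1 UMIs per 10000. There were 15 and 25 such cells, all but 1 of them in the mural gate. They made up 4.39% and 9.58% of mural cells and held 98.6% and 97.9% of the mural Ren1 UMIs. Their median was 151 and 207 Ren1 UMIs per 10000. The highest cell of replicate 1 reached 2612 per 10000, from 5363 Ren1 UMIs, and the highest in replicate 2 reached 1136. The 3 cells just inside the threshold had 20.80, 22.03 and 23.76 Ren1 UMIs per 10000, and the 3 just outside had 19.1, 19.5 and 19.9.

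Akr1b7, an aldo-keto reductase used as a marker of renin cells, was also a mural gene. Mural cells measured 214 and 241 CPM (227 ± 19.1, SD, n = 2), 8.78 on the log2 scale above the mean of the other types (SE 0.24, edgeR adjusted p = 2.20e-17). The pooled other types gave 0.916 and 1.33 CPM. Of the Akr1b7 UMIs of all gated cells, 89.2% and 89.0% were in mural cells. A smaller amount was in the collecting duct, at 11.7 and 7.88 CPM from 83 and 69 UMIs in 21 of 167 and 20 of 186 cells. Collecting duct cells were called higher by 3.83 against the unweighted mean of the other types (SE 0.41, edgeR adjusted p = 1.59e-07). Against all other types pooled, mural cells among them, their level was 1.45 and 0.666 times as high, and 20 of the 83 and 25 of the 69 UMIs came from 1 cell each. Akr1b7 has close paralogs, and reads shared with them cannot be traced in these counts.

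Akr1b7 and Ren1 overlapped in only part of the mural cells. Of the mural cells with an Akr1b7 UMI, 78 of 103 in replicate 1 and 37 of 80 in replicate 2 had no Ren1 UMI. Conversely, 25 of the 47 and 43 of the 63 mural cells with a Ren1 UMI also had an Akr1b7 UMI. Among all mural cells 103 of 319 and 80 of 261 had an Akr1b7 UMI, a lower share in both libraries. Cells without a Ren1 UMI held 546 of 858 and 155 of 1096 mural Akr1b7 UMIs, and 1 barcode of replicate 1 held 137 of the 546. That barcode had 121037 UMIs in all, beside a median of 11136.5 in the mural cells of replicate 1 without a Ren1 UMI. Whether it is a single cell was not tested. The renin-high cells held 12.6% of the mural Akr1b7 UMIs in replicate 1 and 54.8% in replicate 2. Their Akr1b7 level was 847 and 1516 CPM, against 193 and 119 CPM in the other mural cells. Within the Ren1 range the levels varied. The 5 and 9 renin-high cells below 100 Ren1 UMIs per 10000 had 27.5 and 713 CPM, the former from 1 UMI, whereas the 9 and 11 cells at 5 to under 20 had 1100 and 716 CPM. These differences have no test, since the cells were chosen on Ren1. Mural cells with at least 5 Akr1b7 UMIs per 10000 numbered 36 and 29, of which 4 and 15 were renin-high and 25 and 7 had no Ren1 UMI. Of these, 27 and 18 were pericytes or mesangial cells (75.0% and 62.1%, beside 69.6% and 67.8% of all mural cells), and 4 and 10 were smooth muscle cells (11.1% and 34.5%, beside 24.5% and 27.97%).

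**Figure D2:**
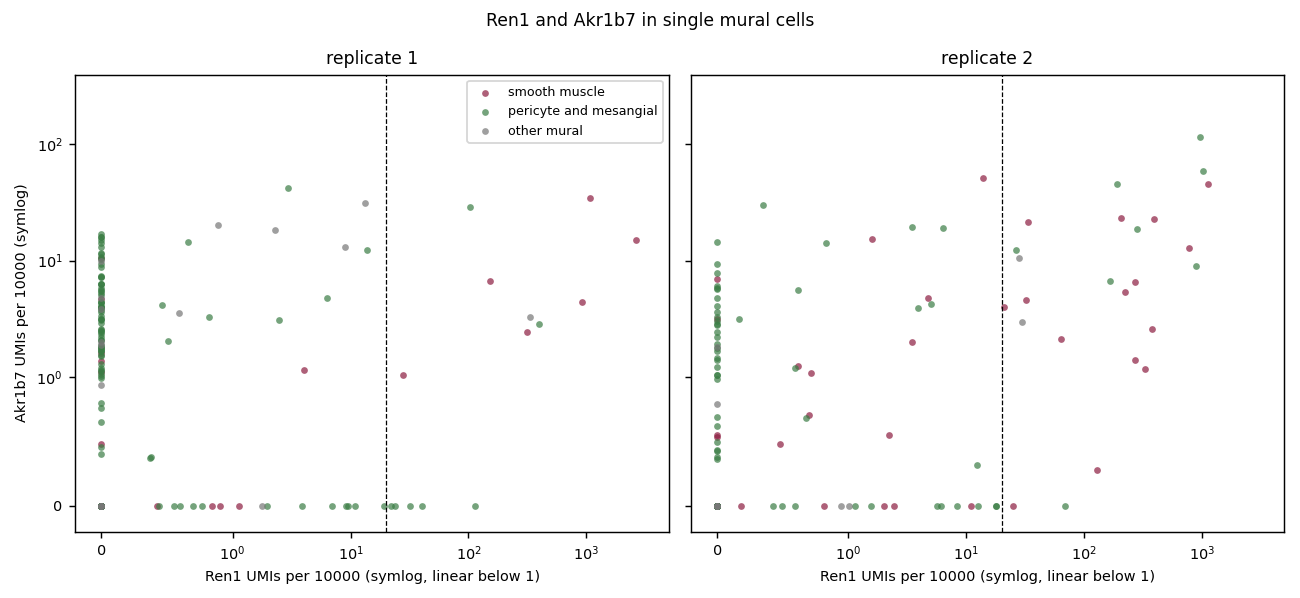
Ren1 (x axis) and Akr1b7 (y axis) in UMIs per 10000 in every mural cell, on symmetric log axes, by library and subtype, with the dashed line at 20 Ren1 UMIs per 10000. Cells with Akr1b7 but no Ren1 form the column at the left of each panel, 78 cells in replicate 1 and 37 in replicate 2.

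Mural cells were further divided into smooth muscle and pericyte or mesangial cells by markers. Ren1 measured 8115 and 6089 CPM in 78 and 73 smooth muscle cells, and 210 and 1468 CPM in 222 and 177 pericyte and mesangial cells. The groups did not overlap, and smooth muscle was higher by 3.74 on the log2 scale (SE 0.48, edgeR adjusted p = 4.80e-06). The size differed between the libraries, 5.37 in replicate 1 and 2.09 in replicate 2. Without the highest Ren1 cell of each library, which held 5363 of 8222 and 2404 of 7782 UMIs, smooth muscle measured 2880 and 4313 CPM. Of the renin-high cells, 6 and 15 were smooth muscle cells and 7 and 8 were pericyte or mesangial cells. Akr1b7 gave 104 and 333 CPM in smooth muscle and 218 and 208 CPM in pericyte and mesangial cells. Here the libraries differed in direction, and the fitted difference was -0.04 (SE 0.36, edgeR adjusted p = 0.998).

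The receptor genes Agtr1a and Agtr2 lay on the other side of that division. Agtr1a, the main type 1 receptor of rodents, measured 270 and 256 CPM in pericyte and mesangial cells and 60.2 and 68.1 CPM in smooth muscle. It was lower in smooth muscle by 1.94 on the log2 scale (log2 fold change -1.94, SE 0.24, edgeR adjusted p = 2.24e-06). Agtr2 measured 59.3 and 57.8 CPM in pericyte and mesangial cells and 5.92 and 6.26 CPM in smooth muscle (log2 fold change -3.19, SE 0.41, edgeR adjusted p = 7.16e-06). For both genes the libraries were close and the subtypes did not overlap. Agtr1b measured 11.8 and 2.35 CPM in smooth muscle and 12.1 and 16.8 CPM in pericyte and mesangial cells, and did not pass (log2 fold change -0.98, SE 0.65, edgeR adjusted p = 0.388), with 0.06 in replicate 1 and -2.64 in replicate 2. In this comparison 4 of 9 members passed, 2 higher and 2 lower, against 13.0% of 16565 genes (7.15% higher). The fourth was Agt, higher in smooth muscle by 3.56 from 5 and 4 UMIs against 1 and 1 (edgeR adjusted p = 0.0427), a call lost in 4 of 10 alternatives (adjusted p up to 0.684). Enpep did not pass, at 54.3 and 95.5 CPM in smooth muscle and 77.4 and 89.1 CPM in pericyte and mesangial cells.

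**Figure D3:**
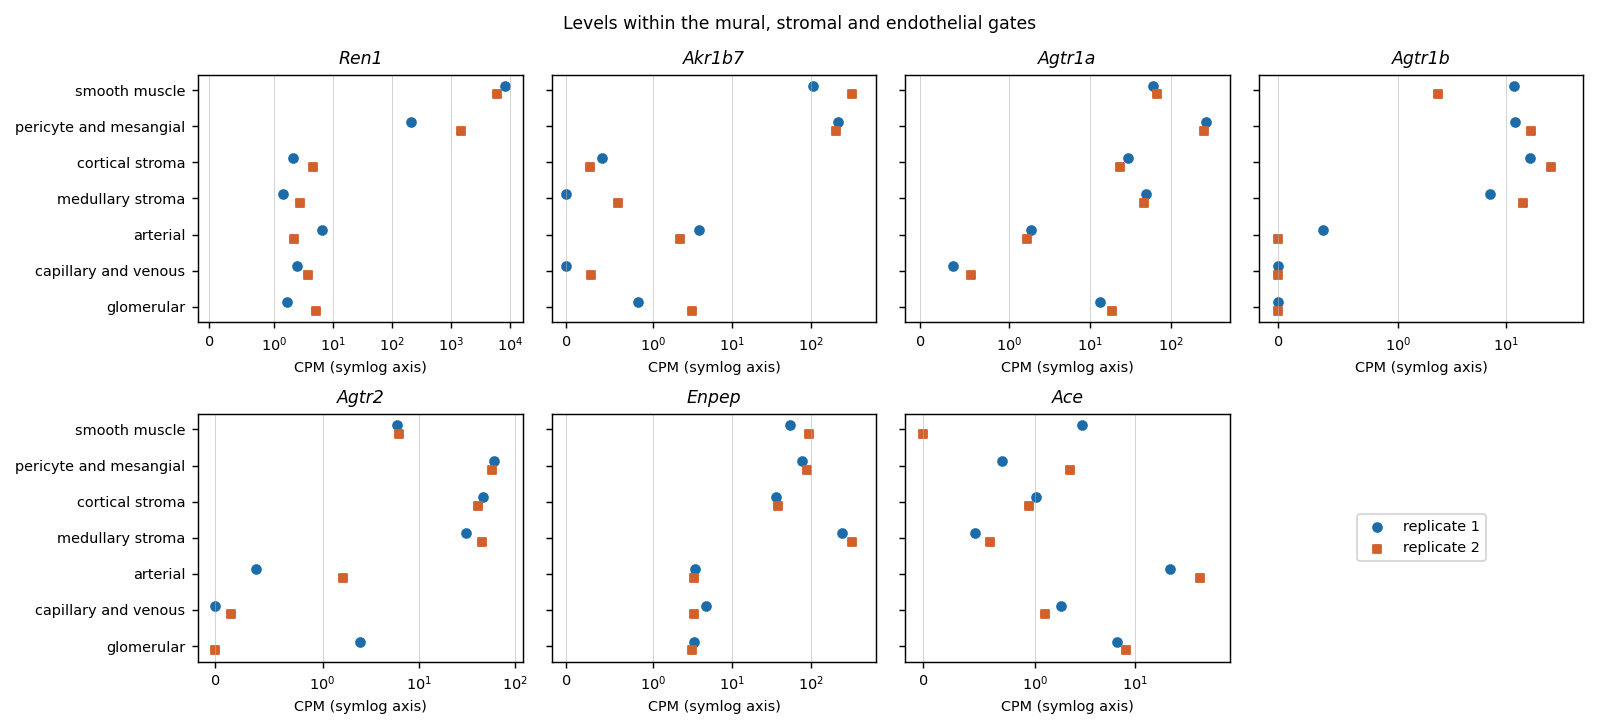
Level in CPM (x axis, symmetric log scale, linear below 1) of 7 members within the mural, stromal and endothelial gates (y axis), with 1 point per library. Ren1 is highest in smooth muscle, Agtr1a and Agtr2 are higher in pericyte and mesangial cells than in smooth muscle, Enpep is highest in medullary stroma and Ace in arterial endothelium.

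Across the Ren1 range of mural cells the receptors were described without a test, since the groups were formed on Ren1. Agtr1a measured 209 and 204 CPM in mural cells with no Ren1 UMI. It measured 443 and 466 CPM in the 9 and 11 cells with 5 to under 20 Ren1 UMIs per 10000, and 252 and 84.0 CPM in the 9 and 16 cells with 100 or more. The middle group was the highest of the 5 in both libraries, and the top group differed between them. Agtr2 measured 47.2 and 51.6 CPM in cells with no Ren1 UMI and 10.96 and 3.82 CPM at 100 or more, from 1 UMI in each library. Agtr1b had 0 UMIs in renin-high cells of both libraries, against 48 and 57 UMIs in the other mural cells. With so few UMIs in all, the renin-high mural cells allow up to 23.5 and 7.57 CPM at a count of 0, and only in replicate 2 is that limit under the 13.7 CPM of the other mural cells.

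**Figure D4:**
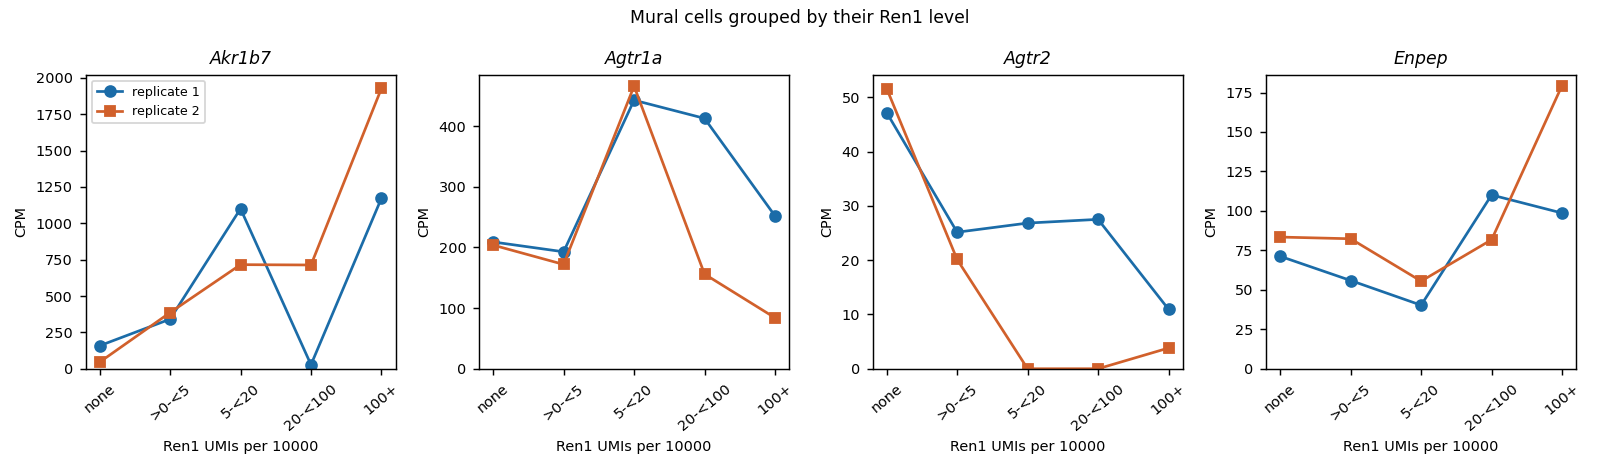
CPM of Akr1b7, Agtr1a, Agtr2 and Enpep (y axes, each from 0) in mural cells grouped by Ren1 UMIs per 10000 (x axis), with 1 line per library. Groups above 5 hold 5 to 16 cells per library, Agtr1a is highest in the group of 5 to under 20 and Agtr2 is highest in cells with no Ren1 UMI.

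The type 1 receptor Agtr1a was spread over 3 compartments. Mural cells measured 215 and 202 CPM (208 ± 8.95, SD, n = 2), proximal tubule cells 67.9 and 47.2 CPM, and stroma 45.2 and 36.6 CPM. The proximal tubule and stroma values do not overlap but lie close, and their difference was not tested. Mural cells exceeded the mean of the other types by 6.17 (SE 0.14, edgeR adjusted p = 1.63e-18). The other 10 types, leaving out erythroid cells, ranged from 0 to 6.98 CPM. By number of UMIs the proximal tubule held 43.2% and 28.2% of the gated Agtr1a message and mural cells 33.8% and 43.9%. Agtr1a and Agtr1b are close paralogs on different chromosomes, so reads from shared stretches cannot be assigned with certainty. Agtr1a also holds the sense intronic gene Gm48161, counted separately.

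Agtr1b and Agtr2 were genes of the stroma, the interstitial cells between tubules and vessels, and of mural cells. Agtr2, abundant in fetal tissues and falling after birth, measured 47.7 and 43.8 CPM in stroma and 43.9 and 41.5 CPM in mural cells. These pairs overlap, and the difference of mural from stroma was -0.07 (SE 0.23, edgeR adjusted p = 0.919). Stroma was higher than the mean of the other types by 7.28 (SE 0.20, edgeR adjusted p = 3.56e-16). Outside stroma, mural and erythroid cells Agtr2 did not exceed 0.838 CPM. Agtr1b, the lesser type 1 receptor, measured 13.5 and 21.5 CPM in stroma and 11.96 and 12.52 CPM in mural cells. Their difference was -0.46 (SE 0.41, edgeR adjusted p = 0.587). In mural cells Agtr1b exceeded the mean of the other types by 6.37 (SE 0.41, edgeR adjusted p = 1.60e-10). Outside stroma, mural and erythroid cells it did not exceed 1.01 CPM. That highest value was the distal and connecting tubule, which was called higher from 1 and 5 UMIs in 1 and 2 cells. For both genes several types had no UMI, so the fitted sizes depend on the prior count, and the pooled ratio is given beside them. Stroma was 25.9-fold and 19.2-fold above all other types pooled for Agtr2, mural cells among them, and 25.7-fold and 30.1-fold for Agtr1b.

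The type 1 and type 2 receptors were also counted within single pericyte and mesangial cells. At 3000 UMIs a cell, Agtr2 was counted in 7.14% and 7.79% of the cells with an Agtr1a UMI and in 17.3% and 19.0% of those without. The numbers behind this are small, 8 and 6 cells with both, and at 1 UMI a cell these shares are a description. In stroma the shares with Agtr2 were 10.5% and 4.35% with Agtr1a and 10.7% and 11.4% without, so that the libraries differed there.

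Mural cells and stroma, both descended largely from Foxd1-expressing progenitors, differed in 4 of 9 members, against 12.6% of all 17563 genes (7.7% higher and 4.88% lower), and all 4 were higher in mural cells. Ren1 was higher by 9.83 (SE 0.44, edgeR adjusted p = 2.07e-11) and Akr1b7 by 9.58 (SE 0.60, edgeR adjusted p = 7.46e-10). Agtr1a was higher by 2.39 (SE 0.21, edgeR adjusted p = 9.33e-08), and Agt by 3.17 (SE 0.89, edgeR adjusted p = 0.0340) from 9 and 7 UMIs against 3 and 1. The Agt call was lost in 4 of 11 alternatives (adjusted p up to 0.844). Agtr2, Agtr1b, Enpep, Ace and Atp6ap2 did not pass. The mural gate was not free of stroma markers: their median was 17.3 and 22.1 UMIs per 10000 in mural cells, beside 38.3 and 41.1 for mural markers. Their part in the receptor levels was not tested.

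Within the stroma the aminopeptidase gene separated medulla from cortex. Enpep measured 247 and 336 CPM in medullary stroma and 36.4 and 38.6 CPM in cortical stroma, a difference of -2.94 for cortex against medulla (SE 0.21, edgeR adjusted p = 1.19e-09). The values do not overlap, and the medullary level was high in both libraries. Agtr1a was lower in cortical stroma as well, at 29.4 and 23.8 against 49.1 and 46.9 CPM (log2 fold change -0.85, SE 0.23, edgeR adjusted p = 0.0218). These were 2 of 9 members called, against 8.04% of 16565 genes. Without the library as a block the Agtr1a difference did not pass (adjusted p = 0.0887), nor did it at 10000 UMIs or more, with doublets kept or with free RNA subtracted. Agtr2 measured 45.8 and 41.1 CPM in cortical stroma and 30.4 and 44.5 CPM in medullary stroma, and Agtr1b 16.6 and 25.8 against 7.02 and 14.3 CPM. The zones overlap for Agtr2 and not for Agtr1b, and neither passed (edgeR adjusted p = 0.722 and 0.302). Stroma cells assigned to neither zone had the highest stromal Agtr1a, 99.9 and 97.1 CPM in 122 and 74 cells.

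Enpep was most abundant in podocytes, the filtering epithelium of the glomerulus. They measured 790 and 783 CPM (786 ± 4.74, SD, n = 2), higher than the mean of the other types by 5.77 (SE 0.10, edgeR adjusted p = 1.15e-20). At 3000 UMIs a cell, 86.6% (95% exact binomial interval 82.8% to 89.8%) and 88.2% (82.8% to 92.4%) of podocytes had an Enpep UMI. Proximal tubule cells followed at 272 and 285 CPM, higher by 4.40 (SE 0.11, edgeR adjusted p = 1.41e-18). Stroma came next at 104 and 133 CPM, early nephron structures at 91.4 and 95.2 CPM and mural cells at 70.3 and 87.7 CPM. The values of these neighbours do not overlap but lie close. Mural cells against stroma did not pass (log2 fold change -0.56, SE 0.19, edgeR adjusted p = 0.0666), and the other neighbours were not tested. Mural cells exceeded the mean of the other types by 2.24 (SE 0.15, edgeR adjusted p = 4.28e-11). Nephron progenitors were low at 9.06 and 5.03 CPM.

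Ace, the converting enzyme, was a proximal tubule gene at this age. Proximal tubule cells measured 112 and 142 CPM (127 ± 21.4, SD, n = 2), higher than the mean of the other types by 5.86 (SE 0.16, edgeR adjusted p = 4.78e-18). The other types pooled gave 2.72 and 3.40 CPM. Endothelium, the classical site of the enzyme, measured 6.92 and 8.72 CPM, a level 1.35 above the mean of the other types on the log2 scale (SE 0.26, edgeR adjusted p = 0.000145). Within the endothelium the message was arterial. Arterial cells measured 22.5 and 44.2 CPM, capillary and venous cells 1.84 and 1.28 CPM and glomerular cells 6.60 and 8.20 CPM. Arterial cells exceeded capillary and venous cells by 4.35 (SE 0.47, edgeR adjusted p = 2.22e-07). Of 9 members Ace alone passed, against 16.5% of 16565 genes. In 150 and 97 arterial cells 16 and 24 had an Ace UMI, and 1 cell held 21 of the 60 UMIs in replicate 1. Macrophages were called higher for Ace from 3.23 and 27.5 CPM, which rest on 5 and 29 UMIs in 4 and 6 cells. Without replicate 2 that log2 fold change was 0.29 in place of 2.19. The antisense gene Gm11651 overlaps Ace, and neither the headers nor the labels state whether strand was used in counting.

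From nephron progenitors to proximal tubule cells 5 of 9 members were higher and none was lower, against 63.5% of all genes called, 31.8% higher and 31.8% lower. Ace was higher by 7.79 (SE 0.39, edgeR adjusted p = 3.91e-13), Enpep by 5.50 (SE 0.23, edgeR adjusted p = 3.31e-14) and Agtr1a by 5.26 (SE 0.27, edgeR adjusted p = 6.61e-13). Atp6ap2 was higher by 2.24 (SE 0.16, edgeR adjusted p = 1.59e-10), and Agt is given above as a bound. Agt passed the edgeR test (adjusted p = 8.21e-07) and not the DESeq2 test (adjusted p = 0.133). Ren1, Akr1b7, Agtr1b and Agtr2 did not pass and were at or under 3.59 CPM on both sides. Early nephron structures had 5.32 and 6.52 CPM of Ace and 2.46 and 2.08 CPM of Agtr1a, nearer to progenitors than to proximal tubule cells. Their Ace was still well above the 0.438 and 0.931 CPM of progenitors, whose Agtr1a was 1.75 and 1.74 CPM. Enpep in early nephron structures, at 91.4 and 95.2 CPM, was also well above the 9.06 and 5.03 CPM of progenitors. Early nephron structures were not tested against progenitors.

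Atp6ap2, the (pro)renin receptor and an accessory subunit of the vacuolar proton pump, was found in every type. Intercalated cells, which secrete acid or base through that pump, measured 314 and 398 CPM (356 ± 59.1, SD, n = 2), higher than the mean of the other types by 2.38 (SE 0.10, edgeR adjusted p = 1.57e-14). Macrophages at 155 and 174 CPM, collecting duct at 147 and 158 CPM and distal and connecting tubule at 155 and 147 CPM followed, with overlapping values. The collecting duct was higher by 1.03 (SE 0.11, edgeR adjusted p = 6.45e-08). The lowest level was in nephron progenitors, 20.6 and 20.7 CPM. Mural cells measured 36.1 and 34.9 CPM and were lower than the mean of the other types by 1.17 (log2 fold change -1.17).

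**Figure D5:**
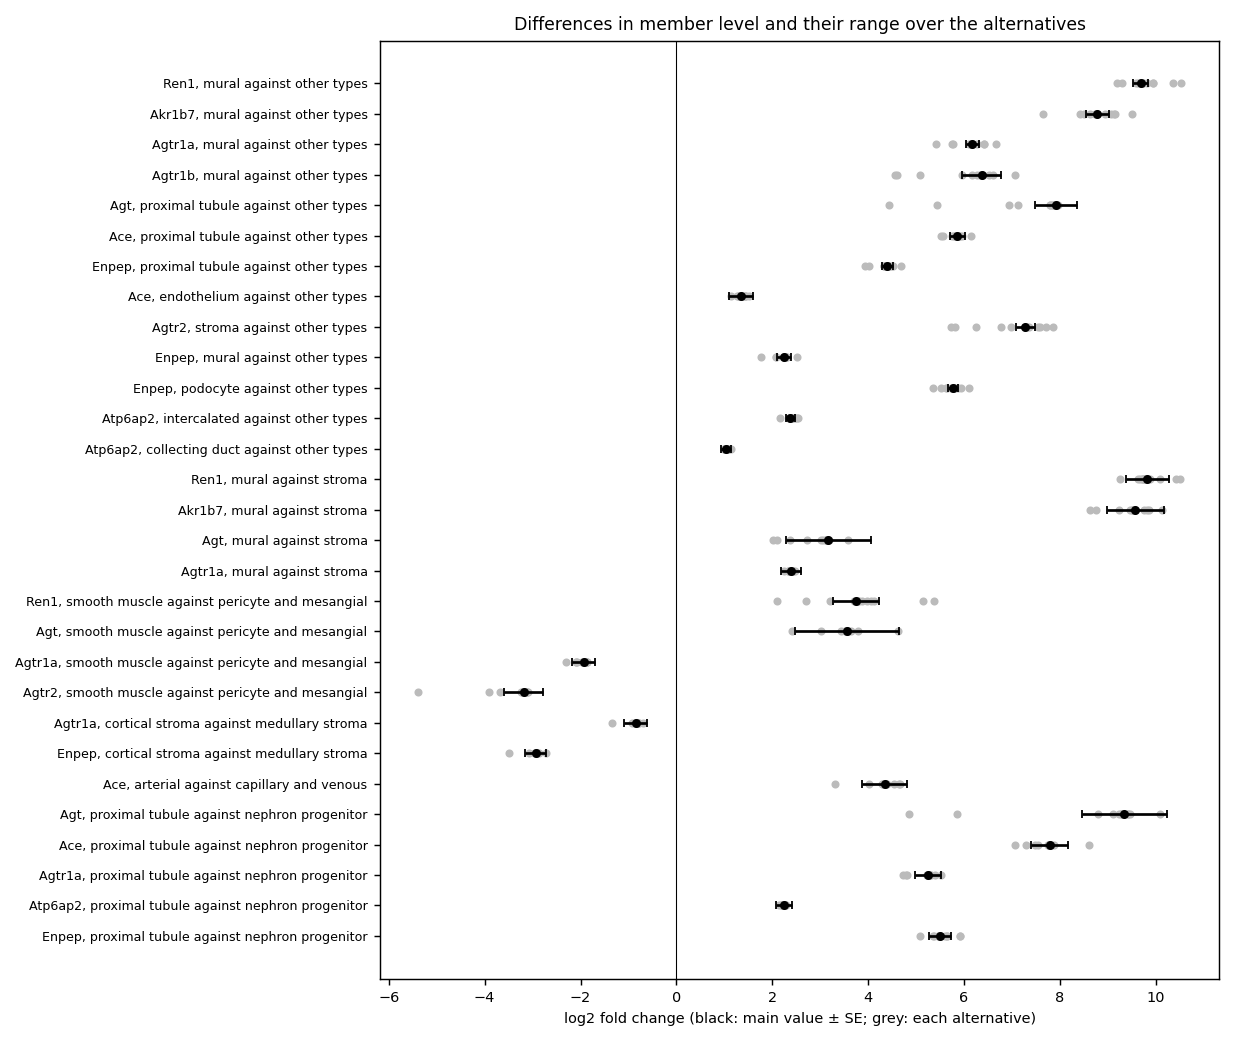
Log2 fold change (x axis) of the named member differences (y axis), with the main value and its SE in black and each alternative processing in grey. No point crosses 0 for any of the 29 differences, and over the alternatives with a test Ren1 in smooth muscle against pericyte and mesangial cells ranges from 2.71 to 5.14.

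Taking all types against the mean of the others, 67 of 126 tests of a member passed, against 44.7% of all genes. Of these 32 were higher and 35 lower, against 26.0% and 18.7%. As the members were chosen with earlier results of these data known, the shares beside all genes are a description. In mural cells 9 of 9 members passed, 7 higher and 2 lower, against 43.4%. In proximal tubule 7 of 9 passed, 5 higher and 2 lower, against 55.0%. In stroma 6 of 9 passed, 4 higher and 2 lower, against 50.2%, a share not far from that of all genes. Nephron progenitors had 6 of 9 members called, all lower, against 54.1% of genes called and 22.6% lower. The ureteric tip had 3 of 9, also all lower, against 41.3% of genes called and 17.7% lower. Along the tubule 4 of 9 passed in early nephron structures (background 48.9%), 6 of 9 in the loop of Henle (42.9%), 4 of 9 in the distal and connecting tubule (45.9%), 5 of 9 in the collecting duct (36.9%) and 3 of 9 in intercalated cells (41.8%). Podocytes had 3 of 9 called, Enpep higher and 2 lower (47.6%, with 22.0% lower), endothelium 3 of 9 (51.4%) and macrophages 4 of 9 (46.5%). The median log2 fold change of the members was 6.17 in mural cells and 0.37 in proximal tubule, beside 0.03 and 0.01 over all genes.

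The other genes of the pathway were read from a list of 26, of which 20 could be tested. Like the second list below, it was drawn up with earlier results of these data known, so its shares are a description. In mural cells 13 passed, 2 higher and 11 lower, against 26.2% of all genes higher and 17.2% lower, and the median log2 fold change of the 20 was -0.65. In proximal tubule 12 passed, 8 higher and 4 lower, against 32.6% and 22.4%, with a median of 0.17. Anpep, the aminopeptidase that acts on angiotensin III, was higher there by 4.43, at 182 and 241 CPM. Hsd11b2, which protects the mineralocorticoid receptor from glucocorticoid, was lower (log2 fold change -3.45). In stroma 10 passed, 3 higher and 7 lower, against 29.0% and 21.1%, with a median of -0.43. In intercalated cells 14 passed, 12 higher and 2 lower, against 22.4% and 19.4%, with a median of 0.82 beside -0.09 over all genes. There Nr3c2, the mineralocorticoid receptor, was higher by 4.58 at 566 and 397 CPM, and the kallikrein gene Klk1 by 4.62 at 117 and 17.7 CPM.

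A second list held 24 genes of the signals known to act on renin cells, chiefly cyclic AMP, prostaglandin and connexin genes. In mural cells 16 passed, 14 higher and 2 lower, against 26.2% of all genes higher and 17.2% lower, with a median log2 fold change of 0.97. The prostaglandin E receptor gene Ptger2 was higher by 7.89 at 16.9 and 15.8 CPM. Gja5, which encodes connexin 40, was higher by 5.88 at 31.4 and 39.5 CPM, and the prostacyclin receptor gene Ptgir by 5.70 at 6.48 and 5.71 CPM. In stroma 12 of the 24 passed, 9 of them higher, against 50.2% of all genes called and 29.0% higher, so that the share called was that of all genes. Ptgir was higher there by 5.49 and Pde3a by 4.84. In podocytes 13 passed, 9 of them higher, against 47.6% and 25.6%, a share called not far from that of all genes. There Ptger4 was higher by 4.03 at 60.9 and 40.9 CPM and Pde3a by 3.59 at 226 and 266 CPM. From the first list 16 of the 20 passed in podocytes, 5 higher and 11 lower, against 25.6% and 22.0% of all genes, with a median of -0.71. Anpep was among the lower ones (log2 fold change -3.01). In proximal tubule 10 of the 24 genes of the second list passed, 3 higher and 7 lower, against 32.6% and 22.4%, with a median of -0.85. In intercalated cells 12 of the 24 passed, 9 higher and 3 lower, against 22.4% and 19.4%, with a median of 0.21. Casr, the calcium-sensing receptor gene, was higher there by 4.54 at 19.98 and 8.25 CPM.

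The genes whose levels ran most like those of each member were sought over the 28 sums of 14 types and 2 libraries, by Pearson's r of log2(CPM + 5). The sums share library, depth and cell gates, and r is a description. Rergl followed Ren1 at 0.99, with Mylk4 and Ndst3 at 0.98. Mylk4 and Rergl also followed Akr1b7, at 0.95 each, with Slc38a11 at 0.94. Agt was matched by Tmc5 at 0.99, Gm30735 at 0.98 and Tmigd1 at 0.97, and Ace by Smim24 and Cdhr2 at 0.94 and Slc13a2 at 0.93. Agtr1a was matched by Trpc1 and Map3k7cl at 0.94. Gabra3 stood first for both Agtr1b (0.98) and Agtr2 (0.99), and 4930590L20Rik was among the first 3 for both. Gm10475 at 0.98 completed the genes for Agtr1b, and Pi15 at 0.99 those for Agtr2. Atp6v0b at 0.93 and Atp6v0c at 0.91, both subunits of the vacuolar proton pump, were nearest to Atp6ap2, followed by Prkcd at 0.89. Enpep had the loosest matches, Gm16984 at 0.87 and Mgat3 and Sec16b at 0.86.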

How the data were processed

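The deposited values are raw UMI counts per gene and barcode for all barcodes, made with Cell Ranger 6.0.1 on mm10 per the submitters' processing notes, whereas the file headers name version 4. The authors' other steps are not given in the sources used here. Libraries held 200331687 and 173166168 UMIs. The members and lists were chosen with earlier results of these data known. Counts were filtered as stated, Scrublet scores (scanpy 1.11.5) removed the highest 0.8% per 1000 barcodes per library, and barcodes were gated by mean z score of 19 marker lists (score at least 0.5, lead at least 0.25, at least 3 markers with a UMI). As cells do not count as replicates, UMIs were added up for each library and type of at least 20 cells and tested with edgeR 4.0.16 (TMM, filterByExpr, library as block, 13 residual degrees of freedom for types and 17 for subtypes). All types of a library come from the same preparation, which is why the library number pairs the sums. On simulated data for mural cells, 95% of genes changed by 1 on the log2 scale and 100% of those changed by 2 were recovered. The simulation used 1 value of spread for all genes and levels that were otherwise equal across types. Changed genes were drawn only from those with several expected UMIs in every sum, which leaves out genes as low as Agt and Agtr1b. DESeq2 1.42.0, other thresholds and normalizations served as alternatives. Gene positions follow GENCODE M21 (GRCm38), where 32158 of 32285 identifiers were found. Named genes were all members, the 3 listed pathway genes with the largest fold among those called in each type where a member was highest, and the 3 most similar genes for each member; 1 gene under these rules is not reported here. CPM were computed from the deposited counts.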

Additional observations from a re-analysis of the deposited data

Results flagged for a closer look

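A large part of the renin message lay in barcodes outside the cell types compared above. Barcodes removed as likely doublets held 7280 Ren1 UMIs in replicate 1 and 6493 in replicate 2, which were 42.2% and 33.4% of the Ren1 UMIs of the kept barcodes. They held 126 and 269 Akr1b7 UMIs. Barcodes that passed no gate held 706 and 82 Ren1 UMIs. With the likely doublets kept, renin-high barcodes numbered 19 and 29 in place of 15 and 25. Whether these barcodes are single renin cells was not tested.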

How the results depend on the processing

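The direction of all 29 named differences was kept in 369 settings. Of the 311 with a test 297 also kept their side of the threshold, and the other 58, with 1 library left out, have no test. The 14 that did not concerned Agt (10 settings, in 4 comparisons) and Agtr1a in cortical against medullary stroma (4 settings); the cause was not tested. Member calls in cortical against medullary stroma fell from 2 to 1 without the replicate block, at 10000 UMIs or more, with doublets kept and with free RNA subtracted. Member calls in arterial against capillary and venous cells rose from 1 to 2 with DESeq2 and with no filter on low counts. Calls over all types numbered 59 without the replicate block in place of 67, and ranged from 51 with free RNA subtracted to 71 without the filter. Renin-high cells, 20 per library on average, numbered 32.5 at a threshold of 5 UMIs per 10000, 13 at 100 and 12.5 at 10000 UMIs or more, and 15 to 25 with 1 library left out. Counts of calls with 1 library left out were not run, as no residual degrees of freedom remain. The limit of 10% mitochondrial UMIs left intercalated cells out of the fit. Leaving out the erythroid type was added after the data were seen. Depth limits values that rest on few UMIs, among them those of Agt, Agtr1b and arterial Ace, at most 252 per library and type.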
